A study of Caenorhabditis elegans with 2 samples.

Results

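The regions described here are those that passed the reproducibility threshold in replicate 1 of a chromatin immunoprecipitation sequencing (ChIP-seq) experiment on EGL-44 in the nematode Caenorhabditis elegans and that overlapped, by 1 bp or more, no thresholded region of replicate 2. They numbered 416 of the 769 thresholded regions of replicate 1 (54.1%). The other 353 regions of replicate 1 overlapped a replicate 2 region and are called shared. The contrast set was the 207 of 549 nuclear regions of replicate 2 that overlapped no region of replicate 1. The counts depend on list length. With both lists set to 549 regions, a comparison chosen after seeing the data, 246 regions were replicate 1 only and 242 were replicate 2 only. The members were chosen by the irreproducible discovery rate (IDR), a measured value that the authors' pipeline gave to each region in each replicate. Their signal and their standing in replicate 2's list are therefore given as a description, with no test. Their location, nearby RNA gene classes, chromosome and base composition were not used to choose them and were tested. Lists of coding genes and distances to coding starts were not used either, and carry no test.

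EGL-44 is the worm's TEAD protein, a DNA-binding factor of the family through which the Hippo pathway acts on transcription in animals, and it is known for its part in neuronal fate together with the zinc finger protein EGL-46. ChIP-seq recovers DNA bound to a protein and reports the places where fragments pile up as regions, each with a summit. IDR ranks regions by how well their order repeats between split portions or replicates of the data. Transfer RNA (tRNA) genes are transcribed by RNA polymerase III from elements inside the gene, called the A box and the B box, while small nucleolar RNAs (snoRNAs) guide the chemical modification of ribosomal RNA.

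Both replicates came from 1 strain, RW12173, in which CRISPR insertion placed GFP on egl-44 together with a loxP-flanked unc-119(+) marker, in an unc-119(tm4063) III background that all animals shared. Whole young adults at 66.5 h, grown from L1 larvae starved after bleaching, were used, so each region mixes all tissues, and the chromatin was sonicated and precipitated with an anti-GFP antibody. The 2 biological replicates form a single group with no other condition, and the control library was not analysed here. The files give regions and signal values but no read counts, so the depth is unknown and no counting interval can be set on a signal. Each set below comes from the list of 1 library. A test between sets thus compares those lists over regions, which are not replicates, and does not compare conditions.

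The sequences around 6 summits show what the strongest members hold. Each run is 121 bases of the ce11 genome (WBcel235, from RefSeq) centred on the summit, printed 5′ to 3′ on the strand of the named gene. Capitals mark CATTCC, the core word bound by TEAD proteins, or GGTTCGA, the core of the B box of tRNA genes, read on either strand. The first 5 are replicate 1 only regions and the last is the strongest nuclear replicate 2 only region. They lie at chrX:13307003-13307123 on the plus strand (the tRNA-Val gene R04D3.t2), chrV:10341966-10342086 on the plus strand (K07C5.13), chrV:16356018-16356138 on the plus strand (upstream of pptr-1), chrIV:9477704-9477824 on the minus strand (the snoRNA gene F38E11.14), chrIII:1601574-1601694 on the minus strand (upstream of sms-3) and chrIV:15895994-15896114 on the minus strand (upstream of srv-14).
R04D3.t2: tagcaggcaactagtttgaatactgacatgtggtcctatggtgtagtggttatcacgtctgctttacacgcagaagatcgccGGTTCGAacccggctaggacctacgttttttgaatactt
K07C5.13: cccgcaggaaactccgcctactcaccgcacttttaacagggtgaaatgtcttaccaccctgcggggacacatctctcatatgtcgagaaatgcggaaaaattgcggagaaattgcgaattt
pptr-1: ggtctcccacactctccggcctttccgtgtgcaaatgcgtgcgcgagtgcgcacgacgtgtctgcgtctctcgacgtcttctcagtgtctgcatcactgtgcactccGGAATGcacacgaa
F38E11.14: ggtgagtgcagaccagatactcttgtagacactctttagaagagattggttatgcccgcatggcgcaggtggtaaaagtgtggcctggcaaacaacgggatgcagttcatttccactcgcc
sms-3: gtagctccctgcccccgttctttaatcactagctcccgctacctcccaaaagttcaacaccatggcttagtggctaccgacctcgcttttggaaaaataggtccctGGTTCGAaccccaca
srv-14: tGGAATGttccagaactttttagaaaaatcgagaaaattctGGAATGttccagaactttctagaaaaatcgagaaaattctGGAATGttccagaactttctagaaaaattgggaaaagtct

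The tRNA-Val member carried the B box core inside the gene, and the pptr-1 member carried the TEAD core near its 3′ end, there on the opposite strand. K07C5.13, the strongest promoter member, and F38E11.14, a member with no counterpart anywhere in replicate 2's list, held neither word in these 121 bases. The sms-3 member held the B box core although no annotated tRNA gene started within 300 bp of its summit. The srv-14 region, which replicate 1's list lacked at any rank, carried the TEAD core as a repeat, on the opposite strand.

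The members were mostly in the lower part of replicate 1's thresholded list by signal, while their median rank in its full list was 555 of 53820 regions. Their signal, the authors' enrichment value in that list, ran from 2.08 to 108.9 with a median of 55.16, and the middle 50% of them lay between 49.8 and 62.76. The shared regions ran from 2.446 to 297.8 with a median of 72.29, and the 53036 ranked regions of replicate 1 above the IDR limit of 0.01 had a median of 15.9. The members thus overlapped the shared regions over most of their range and stood above the bulk of the list. In 5 bands of the 769 regions by signal, 125 of 154 (81.2%) in the lowest were members, against 110 of 154 (71.4%), 102 of 153 (66.7%), 63 of 154 (40.9%) and 16 of 154 (10.4%) in the highest band, which began at 79.69. The replicate 2 only regions held a like place in their own list, with a median of 45.78 against 59.43 for the shared regions as listed in replicate 2. The sources used here do not state how the signals of the 2 lists were scaled, so levels are read only within a list.

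**Figure D1:**
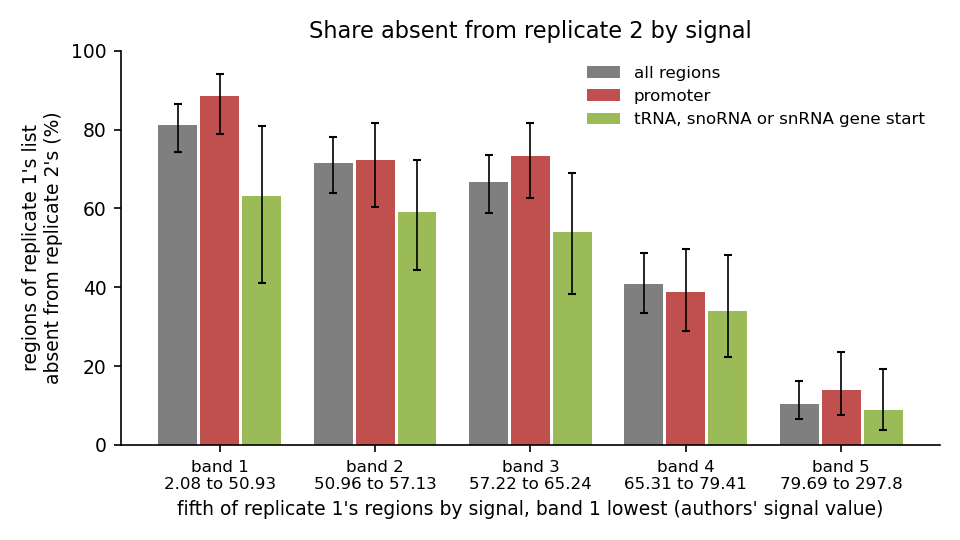
Share of replicate 1's thresholded regions that overlapped no replicate 2 region (y axis, percent) in 5 bands of the list by signal (x axis, the authors' signal value), for all regions, promoter regions and regions at a tRNA, snoRNA or snRNA gene start, with Wilson 95% intervals as bars. The share for all regions goes from 81.2% in the lowest band to 10.4% in the highest band. Signal took part in the choice of members, so the intervals are descriptive only.

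The share of members was also lowest in the highest band for promoters and for small RNA genes taken separately. Among promoter regions the share was 88.6% (62 of 70) in the lowest band and 13.9% (10 of 72) in the highest. Among regions at a tRNA, snoRNA or snRNA gene start it was 63.2% (12 of 19) and 8.93% (5 of 56). The signal of a region took part in the choice of members, so these shares carry no test.

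Nearly all members were present in replicate 2's full ranked list, at lower ranks. A ranked region of replicate 2 overlapped 392 of the 416 members (94.2%), and 24 had none. Where several overlapped, the one of lowest IDR was taken. Its rank by signal among 40873 regions had a median of 1569, with the middle 50% of members between 857.2 and 3658, and its signal there had a median of 31.21. By the rule no member had an IDR of 0.01 or less in replicate 2, 109 (26.2%) had one of 0.05 or less and 80 had one over 0.5. The members just outside the limit had a replicate 2 IDR of 0.0102, 0.0111 (in the promoter window of T26A8.4) and 0.0113 (near Y94H6A.10). The shared regions just inside it, near cox-5A, cbl-1 and nhr-47, had 0.00992, 0.00987 and 0.00983. In distance, the members nearest to a thresholded replicate 2 region lay 34 bp, 42 bp and 105 bp from it, the first near rps-13 and the second near urm-1, while the shared regions of smallest overlap shared 20 bp, 26 bp and 29 bp. Only 5 members lay within 200 bp of a replicate 2 region and 34 within 1000 bp, while 304 lay more than 10000 bp away. The pooled list, called on both replicates together, held 369 members (88.7%), the conservative list held 303 (72.8%), and 34 were in neither. Of the replicate 2 only regions, 190 of 207 (91.8%) overlapped a ranked replicate 1 region, 164 (79.2%) were in the pooled list and 154 (74.4%) in the conservative one.

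**Figure D2:**
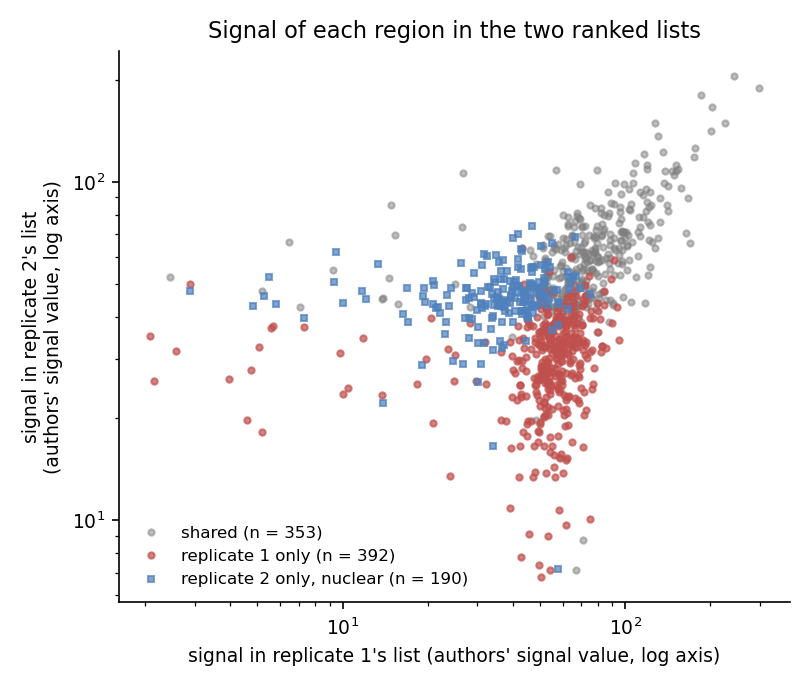
Signal in replicate 1's list (x axis, log scale) and in replicate 2's list (y axis, log scale), in the authors' signal value, with the overlapping region of lowest IDR taken from the other replicate's ranked list. Points are 353 shared regions, the 392 replicate 1 only regions and the 190 nuclear replicate 2 only regions that overlapped a ranked region of the other replicate. The shared regions extend to the highest signals on both axes.

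Not every member had a high signal of its own. Of the 416, 21 had a signal under 20, as did 11 shared regions and 4 replicate 2 only regions. A coding exon region of xbp-1, a transcription factor gene of the unfolded protein response, had 5.863 in replicate 1's list and 99.59 in the pooled list. Another member overlapped 46 of them, so neighbouring members are not always separate places. Counting each cluster of overlapping regions once left 393 members.

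The members lay more often in promoters than the replicate 2 only regions did. A promoter was taken as the 1000 bp before and the 200 bp after any annotated start of a protein-coding transcript, and the location was read at the summit. The summit was in a promoter for 210 members (50.5%) and for 75 of the 207 replicate 2 only regions (36.2%), an odds ratio of 1.79 (95% interval 1.26 to 2.57). By a two-sided Fisher's exact test the Benjamini-Hochberg adjusted p was 0.00516 over 6 locations. Intergenic summits were correspondingly fewer, 101 (24.3%) against 70 (33.8%), with an odds ratio of 0.628 (0.429 to 0.921) and an adjusted p of 0.0399 by the same exact test. Restricted to regions also in the pooled list, the promoter odds ratio was 1.65 and its adjusted p was 0.0515, which missed the threshold of 0.05. Most worm messages are trans-spliced, which removes their first bases, so an annotated start can lie downstream of the site where transcription begins.

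The other locations did not separate the sets by the test. Introns held 74 members (17.8%) against 39 replicate 2 only regions (18.8%), and coding exons held 23 (5.53%) against 17 (8.21%). The 3′ UTR held 7 members and 5 replicate 2 only regions, and the 5′ UTR held 1 of each. Against the 353 shared regions no location passed: promoters held 45% of those (odds ratio 1.24, interval 0.926 to 1.67, adjusted p = 0.353 by Fisher's exact test), coding exons 3.12%, introns 21.2% and intergenic stretches 28.6%. When a summit in both a promoter window and a coding exon was counted as exonic, coding exons held 44 members (10.6%), 27 replicate 2 only regions (13%) and 13 shared regions (3.68%). The odds ratio against the shared regions was then 3.09 (adjusted p = 0.00162, Fisher's exact test). Among replicate 1's ranked regions above the IDR limit, 28.1% lay in promoters and 27.1% in coding exons.

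**Figure D3:**
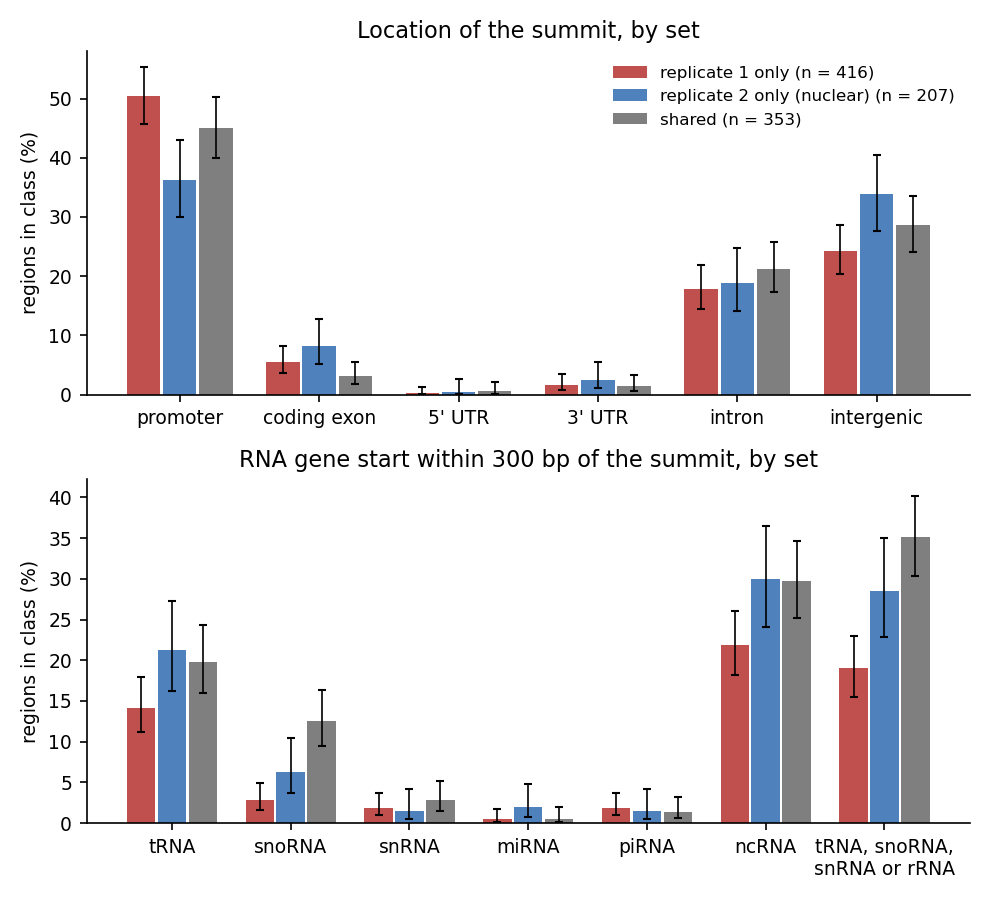
Share of regions (y axis, percent) by location of the summit (top) and with an RNA gene start of each class within 300 bp of the summit (bottom), for 416 replicate 1 only, 207 nuclear replicate 2 only and 353 shared regions, with Wilson 95% intervals. Promoters hold 50.5% of the replicate 1 only and 36.2% of the replicate 2 only regions.

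The promoter members were concentrated close to the start. Between 250 bp and 101 bp upstream of the nearest coding start lay 66 members (15.9%), 16 replicate 2 only regions (7.73%) and 34 shared regions (9.63%). In the first 200 bp downstream lay 28 members (6.73%), against 6 (2.9%) and 7 (1.98%). In the last 100 bp before the start the order was different, with 21 members (5.05%), 12 replicate 2 only regions (5.8%) and 27 shared regions (7.65%). No coding start lay within 2000 bp of 93 members (22.4%), 63 replicate 2 only regions (30.4%) and 102 shared regions (28.9%). These bins were chosen for description and were not tested.

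**Figure D4:**
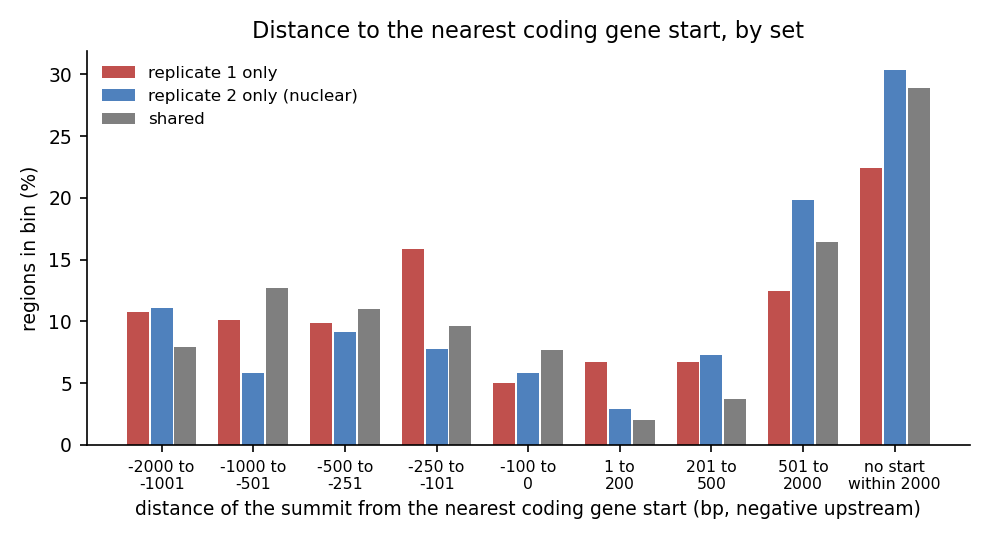
Share of regions (y axis, percent) by the distance of the summit from the nearest protein-coding transcript start (x axis, bp, negative upstream), for replicate 1 only, nuclear replicate 2 only and shared regions. The replicate 1 only regions stand highest at 250 bp to 101 bp upstream, with 15.9% against 7.73% and 9.63%.

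Small RNA gene starts were rarer among the members than among the shared regions. A tRNA, snoRNA or snRNA gene started within 300 bp of the summit in 79 members (19%) and in 124 shared regions (35.1%), an odds ratio of 0.433 (0.307 to 0.609, Fisher's exact test, adjusted p = 2.0e-06 over 8 classes). Members also had lower signals than shared regions, with medians of 55.16 and 72.29 in replicate 1's list. Among regions with signals from 49.8 to 62.76, the members' middle range, the odds ratio was 0.423 (adjusted p = 0.0283, Fisher's exact test). That comparison held 208 members and 79 shared regions, and its range was chosen after seeing the data. The replicate 2 only regions stood between, with 59 of 207 (28.5%). The odds ratio of members against them was 0.588 (0.392 to 0.886) with an adjusted p of 0.0629 by Fisher's exact test, which missed the threshold, and over 9 alternatives it ran from 0.519 (adjusted p = 0.0174) to 0.739 (adjusted p = 0.568), past the threshold in 3. All 3 sets stood far above the ranked regions of replicate 1 over the IDR limit, of which 1.24% had such a start.

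The snoRNA class carried the widest gap to the shared regions. It held 12 members (2.88%), 13 replicate 2 only regions (6.28%) and 44 shared regions (12.5%), and the odds ratio of members to shared was 0.209 (0.0987 to 0.411, Fisher's exact test, adjusted p = 2.0e-06). Put the other way, 12 of replicate 1's 56 snoRNA regions were members (21.4%), against 54.1% over the whole list. The shared snoRNA regions also had higher signals in replicate 1's list, with a median of 84.81 against 59.53 for the snoRNA members. The snoRNA class alone was not compared within a signal range. The strongest snoRNA members were F38E11.14 at chrIV:9477619-9477908 (signal 88.95), C05D2.15 in an intron on chromosome III (77.56), T08B2.13 (71.1) and Y55F3BR.9 (68.48). F38E11.14, whose start lay 65 bp from the summit and which also falls 308 bp upstream of the hedgehog-related gene wrt-3, overlapped no ranked region of replicate 2 and was absent from the pooled list. The others had replicate 2 signals of 28.23, 34.1 and 28.87 and replicate 2 IDRs of 0.148, 0.0117 and 0.0141, the last 2 just past the limit.

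tRNA genes were the commonest small RNA class in the members, with 59 regions (14.2%), against 44 (21.3%) of the replicate 2 only and 70 (19.8%) of the shared regions. Neither difference passed, with adjusted p = 0.0798 and 0.0838 by Fisher's exact test. By gene, 66 of 612 nuclear tRNA genes (10.8%) lay at a member, 48 (7.84%) at a replicate 2 only region and 78 (12.7%) at a shared one. Among the members' genes were 10 of 55 tRNA-Gly genes, 7 of 27 tRNA-Gln, 7 of 42 tRNA-Pro, 6 of 34 tRNA-Ala and 6 of 44 tRNA-Arg. The replicate 2 only regions held 3, 1, 3, 2 and 5 of these, and in turn held more tRNA-Lys genes (8 against 5) and tRNA-Asp genes (6 against 2). No tRNA-His, tRNA-Met or tRNA-Tyr gene lay at a member or at a replicate 2 only region. The shared regions held 2 of 20 tRNA-His, 3 of 20 tRNA-Met and 4 of 19 tRNA-Tyr genes.

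The strongest tRNA member was the tRNA-Val gene R04D3.t2 at chrX:13306918-13307207, with a signal of 91.13 in replicate 1 and 58.79 in replicate 2, rank 227 there at an IDR of 0.017. The tRNA-Gln gene F54F7.t2 (83.02), the tRNA-Thr gene C24H11.t1 (82.79) and the tRNA-Cys gene T28C12.t1 (82.37) followed, with replicate 2 signals of 32.8, 32.66 and 31.44. The contrast set had its own strong tRNA regions. They included the tRNA-Thr genes T25B6.t2 (77.32, with no ranked region in replicate 1) and F52C9.t1 (68.82), the tRNA-Ala gene F15B9.t1 (74.09), the tRNA-Asp gene F28F8.t3 (68.4) and sup-5 (62.38), a tRNA-Trp gene known for its amber suppressor alleles. Many worm tRNA genes are identical in sequence, and 51 of the members' 66 (77.3%) had an identical copy elsewhere, against 469 of all 612 (76.6%) and 38 of the 48 in the replicate 2 only set (79.2%). How the authors placed reads that match several copies is not given in the sources used here, so the choice of gene within a family is uncertain.

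The other RNA classes were few or unspecific. The genes annotated as snRNA, which here include SL2 spliced-leader (sls-2) genes, gave 8 members (1.92%), 3 replicate 2 only and 10 shared regions, and the strongest was C52E4.8 (63.94), 380 bp from the start of the Sm protein gene snr-4. R07E5.16 (56.95), T08G5.11 (56.24) and T27E4.11 (53.03) followed. miRNA gene starts lay at 2 members and 4 replicate 2 only regions, and piRNA gene starts at 8 and 3. Genes annotated as unclassified ncRNA lay at 91 members (21.9%), 62 replicate 2 only regions (30%, adjusted p = 0.0798, Fisher's exact test) and 105 shared regions (29.7%, odds ratio 0.661, adjusted p = 0.0345). This class overlaps the small RNA class above. Regions with an ncRNA start and no small RNA gene start made up 10.1% of the members (42), 13.5% of the replicate 2 only (28) and 10.5% of the shared regions (37). These shares were not tested.

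Most regions with the B box core lay at tRNA genes. Its share away from tRNA genes also differed between the sets, which was not tested. Within 100 bases to either side of the summit GGTTCGA occurred on either strand in 41 members (9.86%), 36 replicate 2 only regions (17.4%) and 54 shared regions (15.3%). The members held it less often than the replicate 2 only regions, with an odds ratio of 0.519 (0.312 to 0.87) and, by Fisher's exact test, an adjusted p of 0.0189 over 2 words, and the contrast with the shared regions missed the threshold (0.605, adjusted p = 0.055). At tRNA genes the word was about equally frequent in the sets, in 33 of 59 members (55.9%), 25 of 44 replicate 2 only regions (56.8%) and 43 of 70 shared regions (61.4%). Away from tRNA genes it was in 8 of 357 members (2.24%), 11 of 163 replicate 2 only regions (6.75%) and 11 of 283 shared regions (3.89%). Of all replicate 1's ranked regions above the limit, those at tRNA genes included, 2.29% held it. A fuller tRNA-like pattern was then looked for, GNNNAGNGG followed on the same strand after 20 to 90 bases by GTTCNANNC, chosen after the printed sequences were seen. Away from tRNA genes it was in 6 of 357 members (1.68%), 1 of them the sms-3 region, in 10 of 163 replicate 2 only regions (6.13%), in 17 of 283 shared regions (6.01%) and in 0.555% of the ranked regions above the limit. At tRNA genes it found 28 of 59 members (47.5%), so it misses many annotated genes. Its places away from tRNA genes included annotated snoRNA genes, such as T08B2.13 (a member), M106.6 (replicate 2 only) and T03F7.8 (shared).

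The share of members with the TEAD core did not pass a test against either set. CATTCC was in 35 members (8.41%), 20 replicate 2 only regions (9.66%) and 30 shared regions (8.5%), and in 10.8% of replicate 1's ranked regions above the limit. The odds ratios of members were 0.859 (95% interval 0.468 to 1.62) and 0.989 (0.576 to 1.71). A word in these bases is a description and not a binding site.

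The members were spread over all 6 nuclear chromosomes. Chromosome X held 20.7% of them, 18.8% of the replicate 2 only and 25.5% of the shared regions, chromosome V held 19.2%, 17.4% and 15.3%, and no chromosome passed Fisher's exact test after adjustment. On the autosomes 179 of 330 members (54.2%) lay in the outer 30% at either end, against 53.6% of the replicate 2 only regions (p = 0.924) and 46% of the shared ones (odds ratio 1.39, 0.992 to 1.95, p = 0.0478, unadjusted Fisher's exact tests), and the last interval includes 1. The median GC content of the same bases was 46.3% in the members and 45.3% in the replicate 2 only regions, a difference of 0.995 percentage points (permutation test, p = 0.178). The shared regions had 47.8% (permutation test, p = 0.0278, unadjusted), and the ranked regions above the limit 40.3%.

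The 20 strongest members, with signals from 76.65 to 108.9, comprised 12 promoter, 4 intron and 4 intergenic regions, and 4 of the 20 lay at tRNA genes. In the 10 strongest replicate 2 only regions, 2 were in promoters and 5 lay at tRNA genes. The highest member of all, with 108.9, was an intronic region on chromosome I with no coding or RNA gene start near it. It overlapped no ranked region of replicate 2, but the pooled list held it with a signal of 159.9. The promoter of K07C5.13 at chrV:10341881-10342170 followed with 94.68, its summit 29 bp upstream of the start. Replicate 2 had 34.02 there at an IDR of 0.0131. The promoter of srh-2, a chemoreceptor-type gene, had 93.63 with the summit 91 bp upstream, and 42.83 in replicate 2.

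The eef-1G promoter at chrV:10965549-10965838 (translation elongation factor 1 gamma) had 85.48 with its summit 25 bp upstream, and 32.24 in replicate 2, rank 1398. The promoter shared by dnj-14, a DnaJ co-chaperone, and glit-1, a gliotactin relative, had 81.18 and 39.36. The region near pcrg-1 and mrpr-1, the gene of the RNase MRP RNA, had 80.15 and 36.02. Measured from the summit, the mrpr-1 start was 111 bp away and the pcrg-1 start 205 bp away. sqd-1, which encodes an hnRNP-type RNA-binding protein, had 79.8 and 41.54, and sym-4 had 79.41 and 43.94. sms-3, a sphingomyelin synthase gene, had 76.76 with 25.28 in replicate 2, and a thresholded replicate 2 region lay 486 bp away. Y62F5A.12 (84.12) and the pair T26A8.4 and pdtf-1 (83.8) completed the promoters above 80, apart from those at small RNA genes.

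Away from promoters and small RNA genes, the strongest members near known coding genes were at pptr-1 and mdt-26. The pptr-1 region, 1443 bp upstream of the gene for a B56-type regulatory subunit of protein phosphatase 2A, had 89.94 and 38.36. The region in an intron of the locus of mdt-26, a Mediator subunit gene, had 88.96 in replicate 1 and 51.64, rank 307, in replicate 2, and a thresholded replicate 2 region lay 337 bp away. The strongest coding exon members were weaker, at lfe-2, which encodes an inositol trisphosphate kinase (67.46), F42A10.5 (61.65), an X-chromosomal exon with no start within 2000 bp (58.98) and vig-1, a gene of the RNA interference machinery (58.75). Their replicate 2 signals were 34.47, 15.06, 31.22 and 15.25. Near vig-1 there were also a shared promoter region (91.02 in replicate 1, 68.09 in replicate 2) and a replicate 2 only coding exon region (43.52). For comparison, the strongest replicate 2 only regions not at a tRNA gene lay upstream of srv-14 (87.52), near rps-6 (70.02), upstream of C14C11.7 (65.95), and in the promoters of zfp-1, a relative of human AF10 (64.52), and Y39B6A.43 (63.23).

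By gene, 256 of 19973 nuclear protein-coding genes (1.28%) had a member in the promoter window, 94 (0.471%) a replicate 2 only region and 207 (1.04%) a shared region. Replicate 1's thresholded list was also the longer one. The window of 56 of the 210 promoter members covered more than 1 gene. In all, 5 genes had both a member and a replicate 2 only region, 1.95% of the members' genes and 5.32% of the others': Y39A1A.21, Y71H2AM.20, his-60, nduc-2 and sly-1. For 6 genes a member and a shared region were both present. The lists of genes below are read against those 3 shares and carry no test.

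The lists of protein synthesis differed in their share of genes with a member. Of 79 cytosolic ribosomal protein genes, 5 (6.33%) had a member, 2 a replicate 2 only region and 9 (11.4%) a shared one. rpl-12 had 72.33 in replicate 1 and 33.69 in replicate 2, rps-28 had 68.4 and 22.17, rpl-7A had 68.39 and 26.43, and rpl-11.2 had 63.06 and 33.29. Of 40 translation factor genes, 3 (7.5%) had a member and 5 (12.5%) a shared region, while none had a replicate 2 only region. Beside eef-1G these were eif-3.B (51.28), a subunit of initiation factor 3, and eef-2 (49.77), elongation factor 2, with the summit 4 bp past its start. None of 32 aminoacyl-tRNA synthetase genes had a member. Of 62 chaperone genes, 6 (9.68%) had a member, 2 a replicate 2 only region and 6 a shared one. Next to dnj-14 they were cct-8 of the TRiC chaperonin (65.09), the DnaJ gene dnj-9 (64.45), enpl-1, the GRP94 chaperone of the endoplasmic reticulum (61.41), hsp-1, the constitutive Hsp70 (59.08), and dnj-20 (58.14). dnj-9 had 60.07 in replicate 2, rank 211, while enpl-1 had 19.05, rank 9769, so the chaperone promoters stood at very different places in the second list.

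Of 81 histone genes 8 (9.88%) had a member, 2 (2.47%) a replicate 2 only region and 3 (3.7%) a shared one. The 8 genes came from 5 regions, since divergent pairs share a promoter. his-59 and his-60 had a common member of 52.58 on chromosome IV, with 23.16 in replicate 2. his-60 also had a replicate 2 only region of 41.46 next to it. his-59 also had a shared region, with 80.21 in replicate 1 and 52.62 in replicate 2. The other members were at his-58 (52.02), his-62 (50.27), the pair his-35 and his-41 (45.69) and the pair his-63 and his-64 (24.9). All 5 of these members were below the members' median of 55.16. Histone genes stand in clusters of near-identical copies, so the reads can fit more than 1 of them and the assignment to a gene is uncertain.

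The other lists of cellular machinery held 0 to 2 genes with a member. The proteasome list had 1 of 33 (3.03%), rpn-11 (54.34, summit 5 bp upstream), a deubiquitinating subunit, and 2 replicate 2 only regions. The nuclear pore list had 1 of 26 (3.85%), npp-8 (64.87), and the mitochondrial ribosomal protein list 2 of 71 (2.82%), mrpl-23 (71.1, beside the snoRNA gene T08B2.13) and mrps-21 (53.9). The Rab GTPase list had 2 of 20 (10%), rab-18 (60.87) and rab-7 (59.96), the latter a regulator of late endosomes, and none in the other sets. None of the 21 vacuolar ATPase genes had a member, and 1 had a replicate 2 only region.

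**Figure D5:**
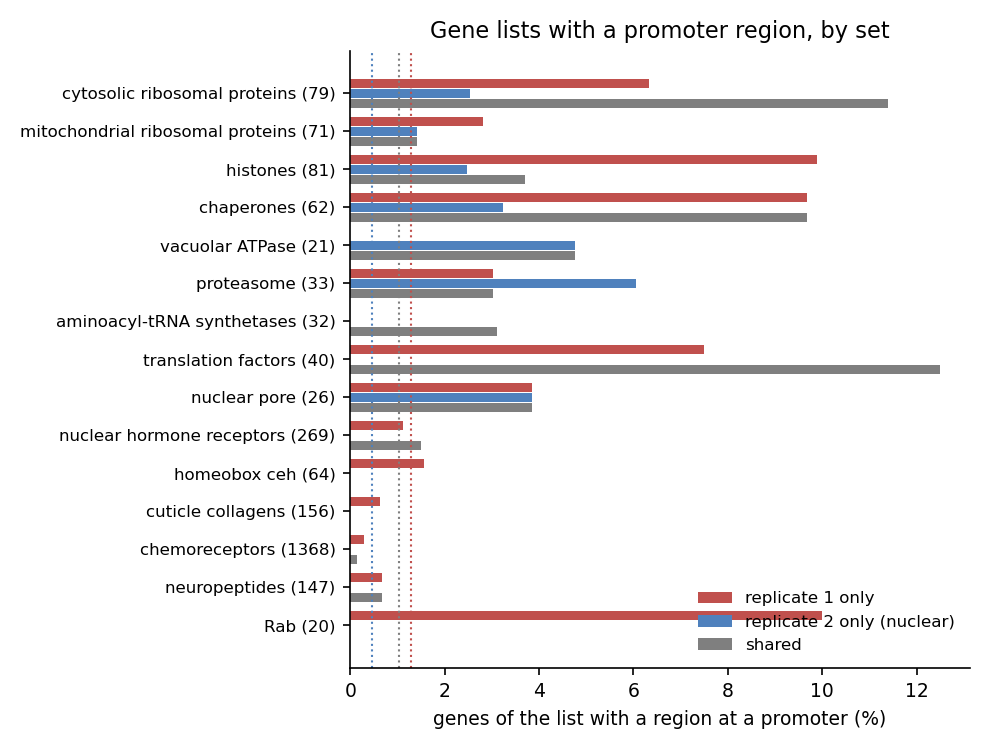
Share of the genes of each list (y axis, with the number of genes in brackets) that had a replicate 1 only, nuclear replicate 2 only or shared region in the promoter window (x axis, percent), for lists of 20 genes or more. Dotted lines mark the shares over all 19973 genes, 1.28%, 0.471% and 1.04%, and histones reach 9.88% for the replicate 1 only regions.

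Gene families of specialised cells stayed near or below the share of all genes. Nuclear hormone receptor genes had 3 of 269 (1.12%), nhr-142 (56.25), nhr-135 (55.55) and nhr-49 (54.34), the last known for its part in fat metabolism. Chemoreceptor genes had 4 of 1368 (0.292%), srh-2, srh-70, sri-5 and srw-85, and srh-70 shared its region with the snoRNA gene T21B4.20 and with ceh-99, the only member among 64 homeobox genes of the ceh series. Collagen genes had 1 of 156, col-185 (65.6, at the tRNA gene H06A10.t1), and neuropeptide genes 1 of 147, nlp-76 (41.45). None of 17 touch receptor neuron genes, a fate that EGL-44 is known to repress in other neurons, and none of 7 cyclin genes had a member.

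The Hippo list, 12 genes of the pathway and of EGL-44's partners, had 1 member, egl-44 itself. Its region at chrII:5936032-5936321, 264 bp upstream of an egl-44 start, had a signal of 49.91 at an IDR of 0.00657 in replicate 1, and 48.38, rank 370, at an IDR of 0.0133 in replicate 2. The 2 values fell on opposite sides of the limit of 0.01. egl-44 is also the gene that carries the GFP insertion in this strain. The list's 2 shared genes were par-5, a 14-3-3 protein gene, and nfm-1, the merlin homologue. In the list of synthetic multivulva and DRM complex genes, 2 of 10 had a member. lin-54, the DNA-binding subunit of that complex, shared its region with rpl-12, and lin-9 had 46.52 with 32 in replicate 2.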

How the data were processed

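ChIP-seq regions of 2 biological replicates of 1 strain were read from the deposited IDR lists (ce11, per the labels). The signal of each region is the authors' value from the deposited lists, and IDR was taken from the −log10 global IDR that the authors deposited. The sources used here give no aligner, no peak caller and no scaling of the signal. The thresholded lists equal the ranked regions with an IDR of 0.01 or less, minus 15 (replicate 1) and 18 (replicate 2). Ensembl release 115 gave the genes (46881 of 46926 matched to RefSeq). Location, RNA gene class, words and GC content were read at the summit with Python 3.11.15, pandas 2.3.3 and SciPy 1.17.1, and compared by two-sided Fisher's exact tests, adjusted by Benjamini-Hochberg within a family, or by a permutation test of medians with 100000 resamples. Regions are not replicates, so p-values do not measure the spread between animals. The overlap and test code was tested on simulated data. Named regions were the 20 and 10 strongest, the 4 strongest per class, up to 4 per gene list, and those at the limit. Further chaperone, histone and ribosomal examples, and a low-signal one, were named after their values were seen. The members, lists and classes were chosen with earlier results of these data known. Alternatives changed the overlap rule, windows, IDR limit, pooled support, list sizes, signal range and overlapping regions.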

Additional observations from a re-analysis of the deposited data

Results flagged for a closer look

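Replicate 2's thresholded list held 19 regions on the mitochondrial genome, with signals from 26.3 to 2057 and a median of 298.8, while no list of replicate 1 held any. They stand outside every comparison above, which used nuclear regions, and their source was not tested.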

How the results depend on the processing

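The count of members, the promoter, coding exon and small RNA comparisons with both sets, and the GC comparison with the replicate 2 only regions were repeated under the alternatives, while the intergenic, intron, UTR and word comparisons, and GC against the shared regions, were not. With an IDR of 0.005 or less in a region's own replicate, which left 130 replicate 2 only regions, the count of members was 259, and the GC difference from the replicate 2 only regions became 1.99 points (permutation p = 0.0463). It was also 1.99 with equal list sizes (p = 0.00806) and 1.74 with overlapping regions counted once (p = 0.00974), by the permutation test. The promoter odds ratio against the replicate 2 only regions fell to 1.65 among regions in the pooled list and no longer passed. That for small RNA genes against the same set passed at 0.564 (summits within 200 bp), 0.519 (pooled list) and 0.554 (gene start within 100 bp), and lay nearer to 1 at 0.739 with equal list sizes, 0.734 with absence set at an IDR of 0.05, 0.72 with the own IDR of 0.005 or less and 0.609 with overlapping regions counted once (adjusted p = 0.568, 0.526, 0.55 and 0.111, Fisher's exact test). Against the shared regions, the small RNA gene comparison passed in all 9 alternatives. Promoters passed against them at 1.57 with a window of 2000 bp upstream and 500 bp downstream (adjusted p = 0.0143 by Fisher's exact test). Coding exons passed against them at 3.09 when counted before promoters. Within the members' middle signal range the coding exon odds ratio reversed to 0.614 (adjusted p = 0.586 by Fisher's exact test). The equal list sizes, the signal range and the counting of overlapping regions once were chosen after seeing the data. The causes of these shifts were not tested. Depth is unknown, and each list is 1 library, so leaving out a replicate leaves no comparison. No paired analysis was possible because there is a single group.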
